A study of Ovis aries with 6 samples.

Results

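The 10 genes described here encode the TGF-beta ligands TGFB1, TGFB2 and TGFB3, the activin subunit INHBA, the receptors TGFBR1 and TGFBR2, the co-receptors TGFBR3 and ENG, and the latent TGF-beta binding proteins LTBP1 and LTBP2. They were chosen by gene symbol, and all 10 were found among the 18865 rows of the count table. Counts per gene came from RNA sequencing of valve endothelial cells (VECs), which cover the mitral leaflets, taken from sheep and grown in culture. For 24 h the cells received ovine plasma, drawn either after a myocardial infarction (post-MI, 3 libraries) or from naive animals (naive, 3 libraries). Strain, age and sex are not in the labels, nor is it stated if replicates differ in culture, in the animal that gave the plasma or in the source of the cells. A p-value here thus reflects the scatter of these libraries only, and that scatter may be technical.

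TGF-beta ligands are secreted in a latent form. The mature dimer stays enclosed by its own propeptide, which is tied to a latent binding protein that anchors the complex in the matrix, and integrins, proteases or thrombospondin free it. The free ligand brings the type II receptor TGFBR2 together with the type I receptor TGFBR1, which phosphorylates SMAD2 and SMAD3. In the heart this pathway is known for driving endothelial-to-mesenchymal transition (EndMT) in the atrioventricular cushions, from which the mitral valve forms, and the series as a whole concerns EndMT of the mitral endothelium. Transcript levels do not report how much latent ligand is freed.

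Total counts were 14858472 to 20672794 per library, and a level is given in CPM, the count scaled by the total of its library. All 10 genes passed the filter on low counts, and the lowest of their counts was 143 (TGFBR3 in post-MI replicate 3). CPM is not corrected for transcript length, so group differences are read between libraries for 1 gene. Where genes are summed, set side by side or taken as a ratio, the size of the value also reflects transcript length. Naive replicate 1 stood apart from the other libraries, at -52.3 on the first principal component against -0.50 to 18.5, and the fold changes and ratios of the 10 genes are therefore given with and without it. The endothelial markers PECAM1 and CDH5 were present in every library, at 880 to 1387 CPM and 889 to 1363 CPM. They had the highest CPM of 16 endothelial markers listed, and others were low, such as VWF at 6.77 to 49.6 CPM and CLDN5 at 0.201 to 19.9 CPM. The fibroblast and valve interstitial marker COL1A1 was at 3183 to 9683 CPM. COL1A2 and COL3A1 of its list of 12 were also high, at 2160 to 5731 CPM and 2491 to 4209 CPM. POSTN was at 496 to 3071 CPM. Others of that list were low, such as DCN at 5.72 to 57.5 CPM and TCF21 at 1.76 to 5.11 CPM.

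With post-MI plasma TGFB2 and TGFBR2 were each higher in all 3 libraries than in any naive library, and 0 of the 10 genes passed the test. Mean TGFB2 was 29.6 ± 13.2 CPM in the naive group and 54.0 ± 2.70 CPM in the post-MI group, and mean TGFBR2 was 114 ± 52.8 and 198 ± 16.3 CPM (SD, n = 3 each). The fitted fold of TGFB1, TGFBR1 and ENG was 1.11, 0.993 and 0.976, and all genes but TGFB2 and TGFBR2 overlapped between the groups. The quasi-likelihood test of edgeR compared the groups over 14326 genes, with Benjamini-Hochberg adjustment over all of them. That test called 0% of all genes at an adjusted p of 0.05, as did limma-voom, and the DESeq2 Wald test called 1.5% of genes (1.7% without naive replicate 1) but 0 of these 10 either way. At an unadjusted p under 0.05, edgeR gave 1 of the 10 genes (TGFB2) and 8.68% of all genes tested. CPM did not overlap between the groups for 2 of the 10 genes, both higher with post-MI plasma, where 7.43% of all genes tested were higher and 8.65% lower without overlap.

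**Figure D1:**
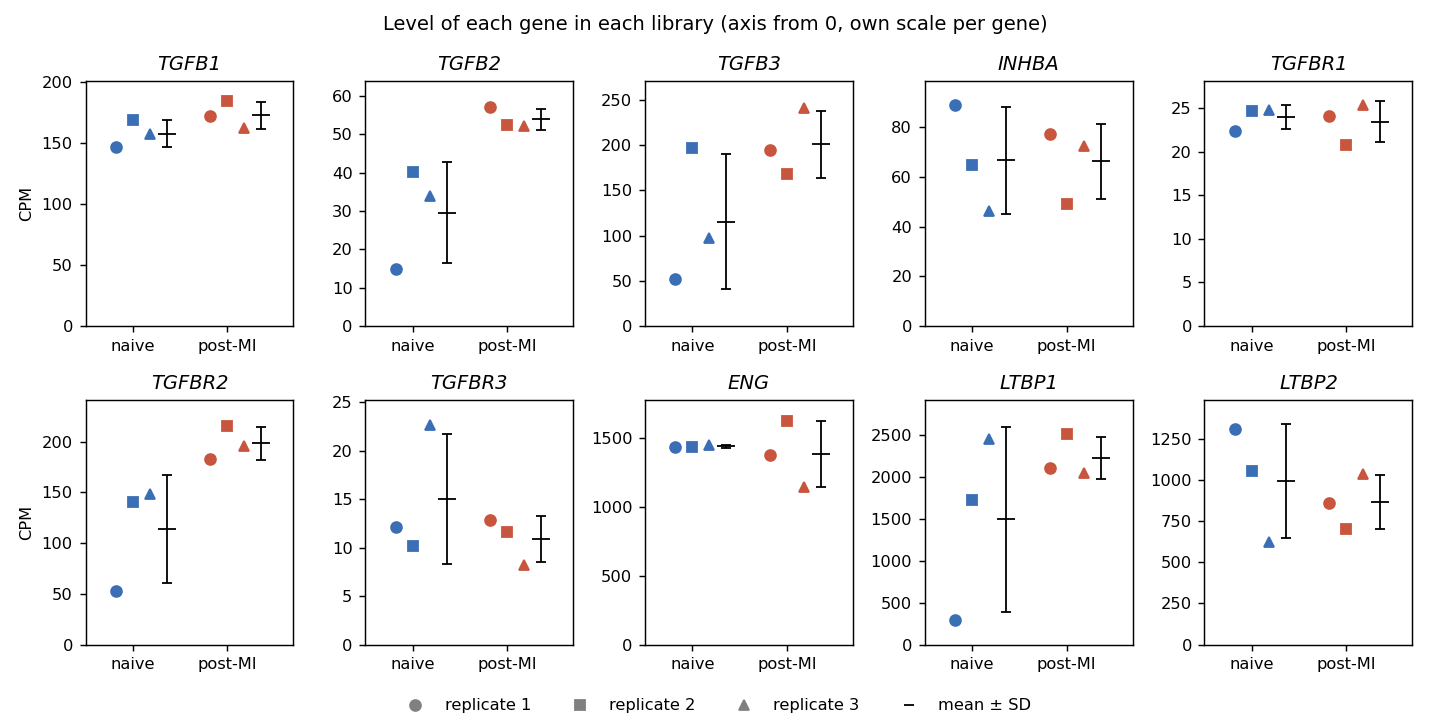
CPM of each gene (vertical axis, from 0, with its own scale) in naive (blue) and post-MI (red) libraries, with symbols for the replicate number and a black bar for the mean ± SD (n = 3 each). TGFB2 and TGFBR2 do not overlap between the groups, and naive replicate 1 (blue circle) lies lowest for TGFB1, TGFB2, TGFB3, TGFBR2 and LTBP1.

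TGFB1 is the most widely expressed of the ligands and is the form stored in platelets. Its CPM was 147, 169 and 158 in naive replicates 1, 2 and 3 and 173, 184 and 162 in post-MI replicates 1, 2 and 3. The groups overlapped and all 6 libraries lay within a 1.25-fold range. The log2 fold change, post-MI minus naive, was 0.15 ± 0.13 (SE; adjusted p by edgeR = 0.724), and its 95% interval ran from 0.895-fold to 1.38-fold. Without naive replicate 1 the log2 fold change was 0.12.

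TGFB2 is the ligand that binds TGFBR2 weakly by itself and depends most on the co-receptor TGFBR3, and it is known for its part in the remodelling of the cardiac cushions. It was at 14.8, 40.1 and 34.0 CPM in naive replicates 1, 2 and 3 and at 57.1, 52.6 and 52.2 CPM in post-MI replicates 1, 2 and 3. Every post-MI library was above every naive library, and naive replicate 1 was below the other naive libraries by more than 2-fold. The log2 fold change was 0.89 ± 0.34 (SE; adjusted p by edgeR = 0.566), a 1.85-fold difference with a 95% interval from 1.07 to 3.21. Without naive replicate 1 it was smaller and less variable, 0.58 ± 0.15 (SE; adjusted p by edgeR = 0.348), or 1.49-fold with an interval from 1.17 to 1.89. The DESeq2 Wald test gave TGFB2 an adjusted p of 0.287 with all libraries and of 0.0550 without naive replicate 1.

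TGFB3, the third ligand, carries like TGFB1 an integrin-binding RGD motif in its propeptide. It was at 51.8, 198 and 97.5 CPM with naive plasma, in replicate order, and at 194, 168 and 241 CPM with post-MI plasma. Naive replicate 2 lay among the post-MI libraries, so the groups overlapped. TGFB3 had a log2 difference of 0.81 ± 0.45 (SE; adjusted p by edgeR = 0.604). It was 0.47 without naive replicate 1 and 1.47 without naive replicate 2, so single naive libraries moved it in opposite directions.

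INHBA encodes the subunit that forms activin A, a relative of the TGF-betas that signals through the activin receptors to the same SMAD2 and SMAD3. It was at 89.1, 65.0 and 46.2 CPM in naive replicates 1, 2 and 3 and at 77.3, 49.0 and 72.6 CPM in post-MI replicates 1, 2 and 3. The group means were 66.8 ± 21.5 and 66.3 ± 15.2 CPM (SD, n = 3 each). For INHBA the log2 fold change was 0.01 ± 0.28 (SE; adjusted p by edgeR = 0.995), with a 95% interval from 0.636-fold to 1.59-fold. Its sign was negative when libraries were scaled by their totals alone, and it was 0.29 without naive replicate 1 and -0.21 without naive replicate 3.

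TGFBR1, the type I receptor kinase also called ALK5, was at 22.3, 24.7 and 24.8 CPM with naive plasma and at 24.1, 20.8 and 25.3 CPM with post-MI plasma, in replicate order. The libraries of both groups were interleaved. TGFBR1 had a log2 difference of -0.01 ± 0.14 (SE; adjusted p by edgeR = 0.988), whose 95% interval ran from 0.796-fold to 1.24-fold. Leaving out naive replicate 1, naive replicate 2 or post-MI replicate 2 gave -0.04, 0.03 and 0.07.

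TGFBR2, the type II receptor that binds the ligand first, was at 53.1, 140 and 148 CPM in naive replicates 1, 2 and 3 and at 183, 216 and 196 CPM in post-MI replicates 1, 2 and 3. All post-MI libraries were above all naive libraries, and naive replicate 1 was again far below the others. The log2 fold change was 0.83 ± 0.36 (SE; adjusted p by edgeR = 0.566), a 1.77-fold difference with a 95% interval from 0.985 to 3.19. Without naive replicate 1 it was 0.49 ± 0.13 (SE; adjusted p by edgeR = 0.404), a 1.41-fold difference with an interval from 1.13 to 1.76. In that fit 2 of the 10 genes, TGFB2 and TGFBR2, had an unadjusted p under 0.05, against 8.1% of all genes tested. The adjusted p of TGFBR2 in the DESeq2 Wald test was 0.388 with all libraries and 0.0648 without naive replicate 1.

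**Figure D2:**
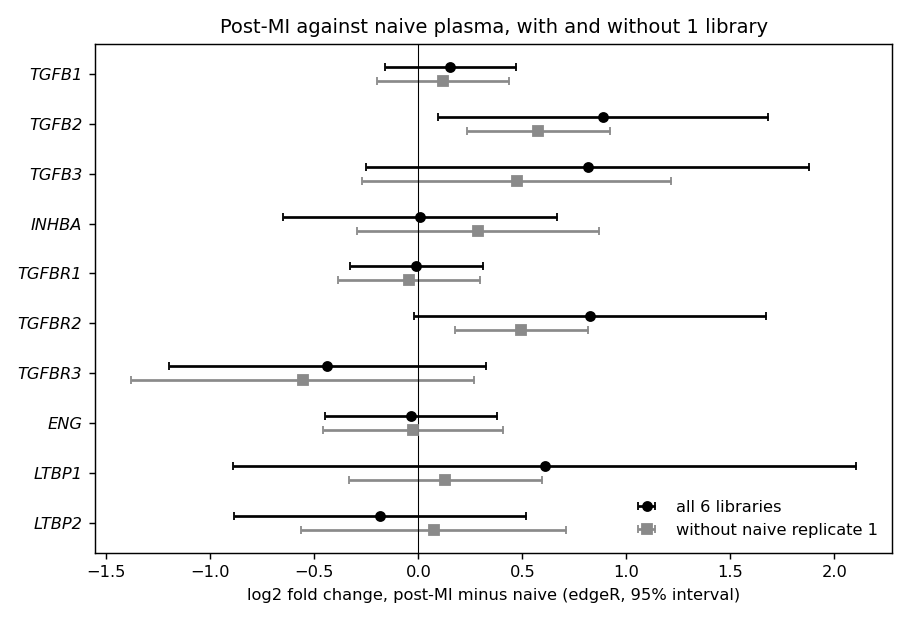
Log2 fold change of each gene (horizontal axis, post-MI minus naive, edgeR) with its 95% interval, from all 6 libraries (black circles) and without naive replicate 1 (grey squares). The interval of TGFBR2 reaches below 0 with all libraries and lies above 0 without naive replicate 1, while the estimate for LTBP1 moves from 0.61 to 0.13.

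TGFBR3, or betaglycan, is a membrane proteoglycan that presents ligand, TGFB2 above all, to the signalling receptors. It was at 12.2, 10.2 and 22.7 CPM with naive plasma and at 12.8, 11.6 and 8.22 CPM with post-MI plasma, in replicate order. Naive replicate 3 was above the other 5 libraries, and the rest of the naive libraries lay among the post-MI ones. Its log2 difference of -0.44 ± 0.32 (SE; adjusted p by edgeR = 0.674) rested on that library, since it was -0.03 without naive replicate 3 and -0.56 without naive replicate 1.

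ENG, endoglin, is a co-receptor abundant on endothelium that also serves BMP9 and BMP10 signalling through ACVRL1. The naive libraries were nearly equal, at 1434, 1436 and 1453 CPM, and the post-MI libraries lay on both sides of them, at 1378, 1625 and 1149 CPM. The coefficient of variation was 0.692% with naive and 17.2% with post-MI plasma. ENG had a log2 difference of -0.04 ± 0.18 (SE; adjusted p by edgeR = 0.959), with a 95% interval from 0.732-fold to 1.30-fold, and one of -0.03 without naive replicate 1. It was 0.09 without post-MI replicate 3.

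LTBP1 binds the latent TGF-beta complex covalently and fixes it in the matrix. It was at 293, 1727 and 2452 CPM in naive replicates 1, 2 and 3 and at 2107, 2514 and 2048 CPM in post-MI replicates 1, 2 and 3. The mean of naive replicates 2 and 3 was 7.14 times the level in naive replicate 1, the largest such gap among the 10 genes, and naive replicate 3 exceeded 2 of the 3 post-MI libraries. LTBP1 had a log2 difference of 0.61 ± 0.64 (SE; adjusted p by edgeR = 0.771) and 0.13 ± 0.20 without naive replicate 1 (SE; adjusted p by edgeR = 0.882). It was 1.14 without naive replicate 3.

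LTBP2 shares the domain structure of the family but does not bind latent TGF-beta and is associated with elastic fibres. It was at 1310, 1060 and 622 CPM with naive plasma and at 864, 704 and 1038 CPM with post-MI plasma, in replicate order. The groups overlapped, and the libraries with the highest and the lowest level were both naive. LTBP2 had a log2 difference of -0.18 ± 0.30 (SE; adjusted p by edgeR = 0.859), and 0.07 without naive replicate 1. Across libraries LTBP2 and LTBP1 were ordered in opposite ways at the extremes: naive replicate 1 had the lowest LTBP1 and the highest LTBP2, while naive replicate 3 and post-MI replicate 2 had the highest levels of LTBP1 and the lowest of LTBP2. INHBA followed LTBP2 there, highest in naive replicate 1 and lowest in naive replicate 3 and post-MI replicate 2. These orders describe 6 libraries and were noticed after the values were seen.

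Taking the genes by library, naive replicate 1 was below every other library for 5 of the 10 genes and above every other library for 2 (LTBP2 and INHBA). Of all genes tested, 28.8% had naive replicate 1 below and 28.9% above every other library. By more than 2-fold it was below every other library for TGFB2, TGFBR2 and LTBP1, 3 of the 10 genes, against 4.52% of all genes tested, and above for 0 of the 10, against 2.08%. Relative to the gene's median over the 6 libraries, its log2 CPM was -1.63 for TGFB2, -1.80 for TGFB3, -1.64 for TGFBR2 and -2.83 for LTBP1, but -0.17 for TGFB1 and -0.13 for TGFBR1. The coefficient of variation was larger with naive than with post-MI plasma for 8 of the 10 genes (66.6% of all genes tested), and for 6 of the 10 without naive replicate 1 (46.3% of all genes tested).

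**Figure D3:**
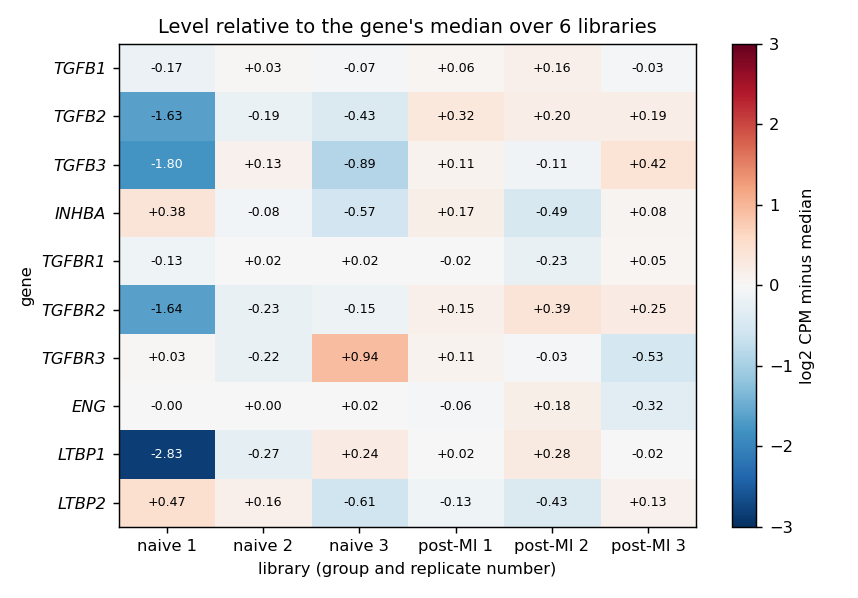
Log2 CPM of each gene in each library minus the gene's median over the 6 libraries (colour scale from -3 to 3, with the value printed in each cell). Naive replicate 1 is far below the median for TGFB2, TGFB3, TGFBR2 and LTBP1, at -1.63 to -2.83, and TGFBR3 departs most in naive replicate 3.

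Cell type markers differed between the same libraries. In bulk RNA, fewer cells of a type, less RNA per cell and expression of a marker by the VECs themselves cannot be told apart. The 11 smooth muscle and pericyte markers in the table, of 12 listed, summed to 933 CPM in naive replicate 1. Their sum was 2622 to 5078 CPM in the other naive libraries and 4546 to 6279 CPM in the post-MI libraries, with RGS5 at 0 counts throughout. Most of it was ACTA2, at 645 CPM in naive replicate 1, 2155 to 4225 CPM in the other naive and 3759 to 5305 CPM in the post-MI libraries. Log2 fold changes were positive for 8 of the 9 markers tested (7 without naive replicate 1), and KCNJ8 gave -0.91. The 12 fibroblast and valve interstitial markers summed to 11297 to 20779 CPM in the naive and 14392 to 18993 CPM in the post-MI libraries. That sum was lowest in naive replicate 1 and consisted mostly of the collagens COL1A1, COL1A2 and COL3A1, while POSTN, PDGFRA and DDR2 were highest in naive replicate 1, POSTN at 3071 CPM against 496 to 859 CPM in the other libraries. The 16 endothelial markers summed to 3366 to 3856 CPM with naive and 3585 to 4881 CPM with post-MI plasma, mostly PECAM1 and CDH5. Of these 16, 12 had a positive log2 fold change (14 without naive replicate 1), with a median of 0.44 (0.39 without it). Of all genes tested 47.9% were positive (50.6% without naive replicate 1), with a median of -0.01. Among the 16, 3 did not overlap between the groups (ROBO4, SOX17 and CLDN5, all higher with post-MI plasma), and 5 had an unadjusted p by edgeR under 0.05. Of all genes tested 7.43% were higher without overlap, 16.1% were either higher or lower without overlap, and 8.68% had an unadjusted p under 0.05. By edgeR 0 of the 16 passed, and the DESeq2 Wald test called ROBO4. The part of these marker differences in the levels of TGFB2, TGFB3, TGFBR2 and LTBP1 was not tested. Of 15 leukocyte markers 14 were in the table, with a sum of 372 to 880 CPM in the naive and 438 to 548 CPM in the post-MI libraries, mostly LAPTM5. CD2 and MS4A1 were at 0 counts, and the pan-leukocyte gene PTPRC was at 0.145 to 0.344 CPM in the naive and, without overlap, 0.64 to 1.32 CPM in the post-MI libraries (log2 difference 2.01 ± 0.54, SE; adjusted p by edgeR = 0.443). Of 11 platelet and red cell markers 6 were in the table, summing to 30.5 to 59.0 CPM in the naive and 33.4 to 53.1 CPM in the post-MI libraries, with PPBP and ALAS2 at 0 counts.

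Ratios of 2 genes within a library do not depend on the scaling between libraries, and 3 were compared. The count ratio of TGFB2 to TGFB1 was 0.10, 0.238 and 0.215 in naive replicates 1, 2 and 3 and 0.330, 0.285 and 0.322 in post-MI replicates 1, 2 and 3. The groups did not overlap, and the mean log2 ratio differed by 0.85, from -2.53 ± 0.68 with naive to -1.68 ± 0.11 with post-MI plasma (SD, n = 3 each; exact two-sided permutation p = 0.1, the smallest that 3 against 3 allows; 0.15 adjusted over the 3 ratios). Without naive replicate 1 the difference was 0.46 (exact permutation p = 0.2, the smallest that 2 against 3 allows).

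The ratio of the receptor TGFBR2 to TGFBR1 was 2.38, 5.68 and 5.99 with naive plasma and 7.60, 10.4 and 7.74 with post-MI plasma, in replicate order. Here too each post-MI library was above each naive library. The mean log2 ratio differed by 0.97 (exact two-sided permutation p = 0.1, adjusted 0.15), and by 0.54 without naive replicate 1 (exact permutation p = 0.2). Both p-values are again the smallest possible for their numbers of libraries. Over all libraries TGFB1 lay within a 1.25-fold and TGFBR1 within a 1.22-fold range. The ratios to them thus mostly repeat the differences of TGFB2 and TGFBR2 given above. The ratio of ENG to TGFBR3 was 118, 141 and 64.0 with naive and 108, 140 and 140 with post-MI plasma, and overlapped. Its mean log2 value differed by 0.33 (exact two-sided permutation p = 0.7, adjusted 0.7), by 0.43 without naive replicate 1 and by -0.0075 without naive replicate 3.

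**Figure D4:**
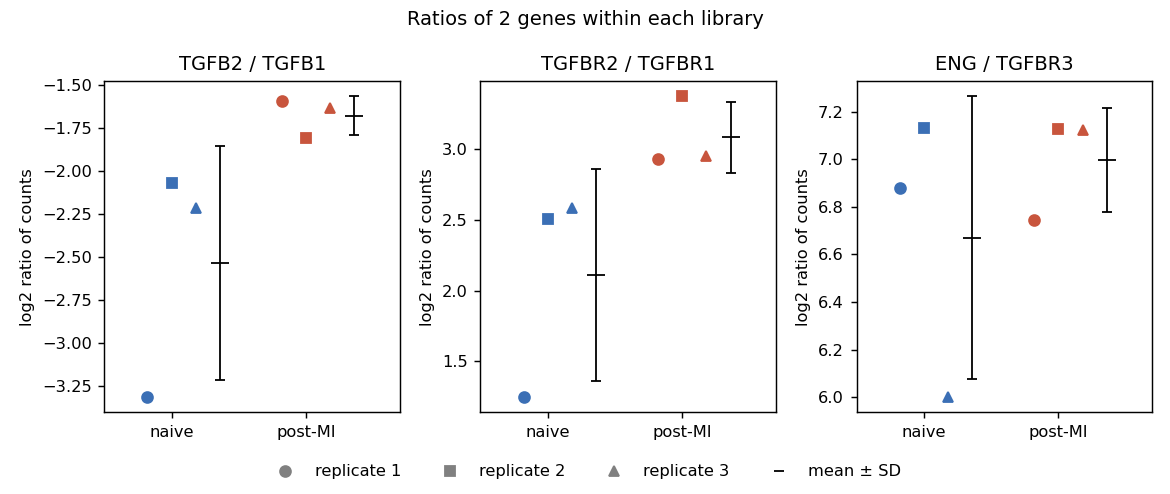
Log2 ratio of the counts of 2 genes within each library (vertical axis, own range per panel, not from 0), for naive (blue) and post-MI (red) libraries with the mean ± SD (n = 3 each). The TGFB2 to TGFB1 and TGFBR2 to TGFBR1 ratios are higher in each post-MI library than in any naive library, while those of ENG to TGFBR3 overlap.

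TGFB2 had the smallest unadjusted p of the 10 genes by edgeR, and tested genes outside the 10 were compared with it by Pearson's r. Those most like TGFB2 in log2 CPM over the 6 libraries were LOC114112700, LOC114112251, PRR12, LOC114112551 and RHBDL2, with r of 0.9936 to 0.9998. In all, 802 genes (5.6% of those tested) had r over 0.9 with TGFB2, and 643 (4.49%) without naive replicate 1. PRR12, for example, was at 20.8 to 32.8 CPM in the naive and 35.6 to 35.9 CPM in the post-MI libraries.

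The other genes of the pathway were read from 6 lists with 119 genes in all, of which 112 were in the table and 101 were tested. By edgeR 0 of the 101 passed, 10 (9.9%) had an unadjusted p under 0.05 and 20 (19.8%) did not overlap between the groups, against 8.68% and 16.1% of all genes tested. limma-voom called 0 and the DESeq2 Wald test called 1, RGMB. The median log2 fold change was -0.03 over these genes, 0.08 over the 10 genes described above and -0.01 over all genes tested. Log2 fold changes were positive for 47 and negative for 54 of the 101.

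Among other ligands of the superfamily, 5 of 9 tested were positive in log2 fold change and 0 passed. BMP4 gave 0.53 ± 0.42 and BMP6 0.59 ± 0.37 (SE), and both were lowest in naive replicate 1, so that they gave 0.19 and 0.26 without it. GDF6, lowest in naive replicate 3, gave 0.76 ± 0.61 (SE), and leaving out naive replicate 1, 2 or 3 gave 0.52, 1.77 and 0.36. Of the other receptors 4 of 10 tested were positive and 0 passed. RGMB, a BMP co-receptor, had 20.5, 19.3 and 19.6 CPM in the naive and 11.1, 12.5 and 13.7 CPM in the post-MI libraries, in replicate order. Every post-MI library was below every naive one, and the log2 fold change was -0.65 ± 0.15 (SE; adjusted p by edgeR = 0.354; DESeq2 adjusted p = 0.0426). Without naive replicate 1 it was -0.61, and DESeq2 no longer called it (adjusted p = 0.113). ACVRL1, the endothelial type I receptor that works with ENG, gave 0.47 ± 0.26 and the type I receptor BMPR1B -0.71 ± 0.34 (SE). Leaving out naive replicate 1 gave 0.71 and -0.80 for these, and leaving out post-MI replicate 1 gave 0.25 and -1.08.

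Of genes that store or free latent TGF-beta, 12 of 20 tested were positive and 0 passed. The microfibril protein FBN1, which holds LTBP1 complexes, had 659 ± 43.6 CPM in the naive and 812 ± 99.1 CPM in the post-MI group (SD, n = 3 each) without overlap, and gave 0.39 in place of 0.32 without naive replicate 1. The transglutaminase TGM2, which crosslinks LTBP1 into the matrix, reached 971 CPM in naive replicate 1, while the other 5 libraries lay between 29.5 and 122 CPM. Its log2 fold change was -2.43 with all libraries and 0.84 without naive replicate 1. EMILIN1, a matrix protein that restrains TGF-beta precursor processing, gave 0.48 ± 0.21 (SE) and 0.50 without naive replicate 1.

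Of the extracellular and membrane antagonists, 8 of 15 tested were positive and 0 passed (6 of 15 positive without naive replicate 1). FSTL1, a secreted follistatin-like protein, was at 646 to 891 CPM in the naive and 1046 to 1110 CPM in the post-MI libraries, and the protease HTRA3 at 2.91 to 4.89 and 5.29 to 9.56 CPM. Neither overlapped, with log2 fold changes of 0.46 ± 0.17 and 0.87 ± 0.31 (SE, edgeR adjusted p = 0.561 and 0.560). SMOC1, an extracellular BMP antagonist at 0.726 to 1.95 CPM, gave 0.83 ± 0.36 (SE). FSTL1, HTRA3 and SMOC1 gave 0.34, 0.71 and 1.01 without naive replicate 1.

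Of the SMADs and their intracellular regulators, 8 of 25 tested were positive, 17 were negative and 0 passed, with a median log2 fold change of -0.11. The ubiquitin ligase NEDD4L, which targets activated SMAD2 and SMAD3, was at 7.39 ± 1.72 and 11.9 ± 1.66 CPM (SD, n = 3 each) without overlap (log2 difference 0.71, edgeR adjusted p = 0.534). TGIF2, a transcriptional corepressor, gave 0.75 ± 0.32 and TAB1, a partner of the kinase TAK1, 0.34 ± 0.15 (SE). NEDD4L, TGIF2 and TAB1 gave 0.55, 0.51 and 0.28 without naive replicate 1. Of the TGF-beta target genes 11 of 25 tested were positive, 14 were negative and 0 passed, with a median of -0.09 (0.02 without naive replicate 1). SNAI2, a transcription factor of EndMT, gave 0.99 ± 0.27, VEGFA -1.13 ± 0.45 and RGS4 -2.02 ± 0.78 (SE), and without naive replicate 1 they gave 0.73, -0.51 and -1.64. Their adjusted p by edgeR was 0.489, 0.566 and 0.566. SNAI2 did not overlap between the groups, while VEGFA and RGS4 did. RGS4 rests on few reads, at 1.11 to 3.56 CPM in the naive and 0.202 to 1.33 CPM in the post-MI libraries.

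**Figure D5:**
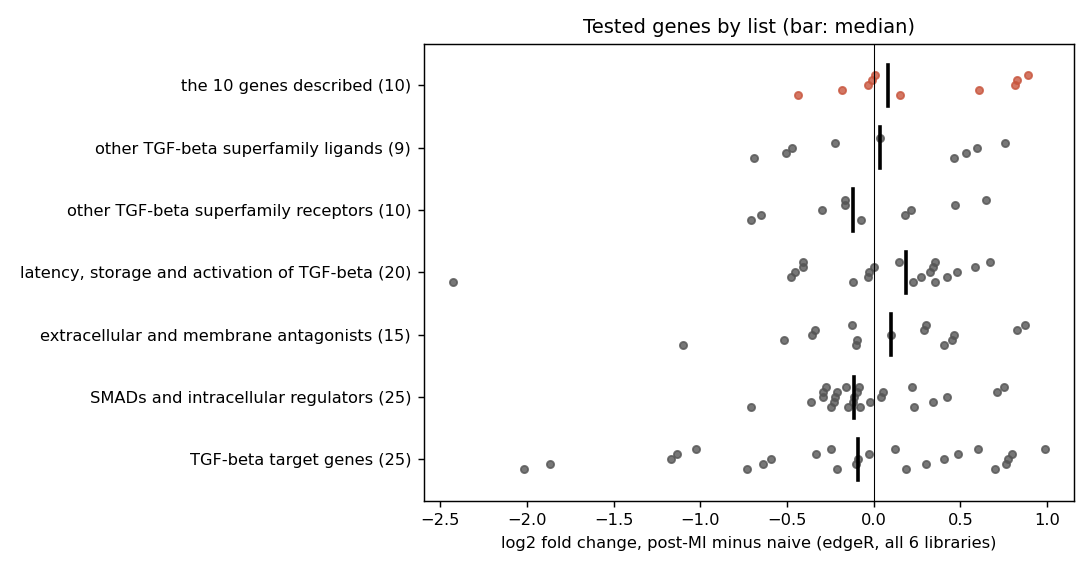
Log2 fold change (horizontal axis, post-MI minus naive, edgeR, all 6 libraries) of each tested gene in the 10 genes described (red) and in 6 pathway lists (grey), with a bar at each median and the number tested in brackets; the vertical offset of points has no meaning. Each list spreads over both sides of 0, with medians from -0.12 to 0.19, and the point at -2.43 is TGM2.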

How the data were processed

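Raw counts per gene symbol were deposited as 1 table of 18865 rows, which was used here, and normalized values per sample were not used here. The submitters' processing notes name featureCounts 2.0.0, STAR 2.5.2b, SAMtools 1.9 and DESeq2 1.26.0, and Oar_v3.1 as genome build. Which annotation and strand setting were used is not given in the sources used here. Reads of overlapping or antisense genes could therefore be shared. Per the labels' protocols, the kit was a stranded mRNA kit read as paired ends of 150 bp. Coordinates and sequences are not given.

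Groups came from sample titles. In R 4.3.3, genes were kept by filterByExpr of edgeR 4.0.16 (minimum count 10, minimum total 15), scaled by TMM and fitted by the quasi-likelihood test on group. That test was tried on simulated data with log2 changes larger than those of the 10 genes. The trial thus does not show if changes of their size would be called. SE was taken as the size of the log2 fold change divided by the root of the F statistic. CPM uses library totals. Ratios added 0.5 to each count before the log2, though the ratios printed are of plain counts. Alternatives used DESeq2 1.42.0, limma 3.58.1, other scalings and filters, a replicate block and each library left out. DESeq2 without naive replicate 1 was added after seeing the data.

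The 10 genes, the 6 pathway lists and the 5 marker lists were chosen with earlier results of these data known. Named pathway genes are the 3 with the smallest p in each list, and genes like TGFB2 are the 5 with the highest correlation. Same-numbered libraries did not deviate together in every pair (r = 0.15, -0.11 and 0.09), so the numbers were not taken as pairs.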

Additional observations from a re-analysis of the deposited data

How the results depend on the processing

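For all genes tested, edgeR called 0 genes and the DESeq2 Wald test 215 (245 without naive replicate 1). For the 101 tested pathway genes outside the 10, edgeR called 0, DESeq2 1 (RGMB, not called without naive replicate 1), and DESeq2 without naive replicate 1 called 2 (BMPER and SNAI2). Each of these alternatives called 0 of the 10 genes, as did limma-voom, other scalings and filters, the replicate block and edgeR with each library left out; the cause of the difference between tools was not tested. Of the 10 genes, 6 kept the sign of their log2 fold change in all 14 alternatives (TGFB1, TGFB2, TGFB3, TGFBR2, TGFBR3 and LTBP1) and 4 did not. With single libraries left out, TGFBR1 ran from -0.066 to 0.066 (0.028 without naive replicate 2, 0.00031 without naive replicate 3), ENG from -0.17 to 0.086, LTBP2 from -0.44 to 0.073 and INHBA from -0.21 to 0.29 (-0.11 without post-MI replicate 1, -0.058 without post-MI replicate 3). INHBA gave -0.0095 with library totals alone. In DESeq2 without naive replicate 1 LTBP2 gave 0.068 and TGM2 0.83, and TGM2 ran from -3.29 to 0.84 with single libraries left out. TGFB2 ran from 0.58 to 1.19, TGFBR2 from 0.49 to 1.04, TGFB3 from 0.47 to 1.47 and LTBP1 from 0.13 to 1.14. The log2 ratio difference of ENG to TGFBR3 ran from -0.0075 to 0.56, that of TGFB2 to TGFB1 from 0.46 to 1.09 and that of TGFBR2 to TGFBR1 from 0.54 to 1.21.

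With the replicate block, edgeR called 0 genes in all and 0 of the 10, and TGFB2 gave 0.997, TGFB3 1.03, TGFBR2 0.95 and LTBP1 1.02. For the ratios, differences within replicate numbers gave 0.85, 0.97 and 0.33 under the block, with an exact sign-flip permutation p of 0.25, 0.25 and 1, where 0.25 is the smallest possible. Each of the 10 genes had at least 143 counts in every library, and the effect of depth on these results was not tested.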
